A study of Citrullus lanatus with 12 samples.

Results

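Among 23440 watermelon genes, 52 kept their reads within set limits in anthers from the tetrad stage to the dikaryophase and then stood lower in mature anthers. They were chosen by their values in the same 12 libraries that are described here. With the mean deposited log2 value of each stage, a member had a highest mean of at least 8 before maturity. Its mature mean lay at least 1.5 below the lowest of the 3 earlier means, which is 2.84-fold for the member closest to that limit. The earlier means spanned less than 1.5, and the dikaryophase exceeded the higher of the tetrad and mononuclear means by less than 0.6. Of 15317 genes that reached the level of 8, 162 met the limit on loss and 52 of these met the limit on range. The limit on the rise at the dikaryophase removed none of those 52. The mean of the members over the earlier stages had a median of 10.22 on the log2 scale, against 10.68 for the genes that reached 8. Neither value is corrected for gene length. Since the members were chosen by these limits, their stage differences follow from the choice and are given as a description. The deposited table gives gene IDs without names, and neither functions nor sequences are attached to the IDs below.

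Messenger RNA was sequenced from anthers of Citrullus lanatus, taken from progeny of the variety Xinteda Zhengkang 9 that were grown in a greenhouse. Anthers at 4 stages were compared, namely tetrad, mononuclear, dikaryophase and mature, and each stage had 3 libraries. The labels give no treatment or genotype contrast, and a part of every anther was staged under the microscope before RNA was taken from the remainder. The labels do not say whether the 3 sample groups of a stage came from different plants, so every error and p-value reflects the spread of these particular samples.

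During anther development the products of meiosis first sit together as tetrads. They are then released as microspores with a single nucleus, which divide to give pollen grains with a vegetative and a generative nucleus. The tapetum, the innermost layer of the anther wall, feeds the microspores and lays down part of the pollen wall. It breaks down as the pollen matures, while the grains fill with reserves, dry and are shed from the opening anther. In a whole anther, fewer cells of a type and less RNA per cell cannot be told apart. Markers of these cell types could not be looked up, because the IDs are not paired with names.

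Libraries held 55347640 to 65554998 reads assigned to genes, and 17484 genes passed a filter of 1 CPM (reads scaled to the library total) in 3 or more libraries and were tested, among them all 52 members. Normalised reads are the deposited values taken back from the log2 scale and less the pseudocount of 1. They are not corrected for gene length, so levels are compared between stages and not between genes. Which libraries stood apart from the others of their stage depended in part on the measure. On the first principal component of the tested genes without the members, which held 69.0% of the variance, mononuclear replicate 2 (-43.0) lay closer to the later stages than mononuclear replicates 1 (-65.2) and 3 (-64.8). Mature replicate 3 (107) lay closer to the earlier stages than mature replicates 1 (125) and 2 (122). Dikaryophase replicate 3 (58.6) also lay closer to them than dikaryophase replicates 1 (73.3) and 2 (82.7). Tetrad replicate 3 (-125) lay closer to the later stages than tetrad replicates 1 (-134) and 2 (-136).

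The members together made up a small part of the transcriptome, and that part shrank at maturity. They took 0.397%, 0.392% and 0.414% of all reads in tetrad replicates 1, 2 and 3. In the mononuclear libraries they took 0.418%, 0.315% and 0.358%, and in the dikaryophase libraries 0.324%, 0.252% and 0.352%. In mature libraries the share was 0.0652%, 0.0809% and 0.0976%, below each of the 9 earlier libraries. Stage means were 0.401% ± 0.0116 (SD, n = 3), 0.364% ± 0.0520, 0.309% ± 0.0516 and 0.0812% ± 0.0162 in the order of development. The 5 members with the most reads carried much of this. Without them the shares were 0.140% ± 0.00561, 0.131% ± 0.0231, 0.119% ± 0.0224 and 0.0315% ± 0.00516.

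**Figure D1:**
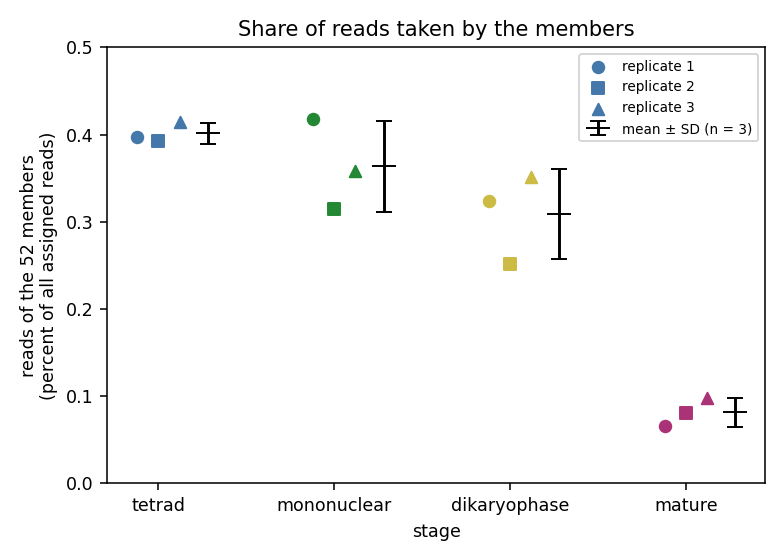
Reads of the 52 members as a percent of all assigned reads (vertical axis) in each of the 3 libraries of the 4 stages (horizontal axis), with the mean ± SD beside them. The mature libraries lie between 0.0652% and 0.0976%, and the 9 earlier libraries between 0.252% and 0.418%.

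The loss at maturity was mostly moderate. The mature mean lay 1.51 to 5.03 below the lowest earlier stage on the log2 scale, with a median of 1.81, a 3.49-fold difference. Over all tested genes the same quantity had a median of -0.16. In 29 members the loss was under 2, in 17 it was from 2 to under 3, and in 6 it was 3 or more. On the linear scale the members kept between 4.09% and 34.6% of their mean normalised reads over the earlier libraries, with a median of 21.3%. The loss was thus partial: 43 of the 52 members still had a mean of at least 1 CPM in mature anthers, and 1 member had a mature library without a read.

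**Figure D2:**
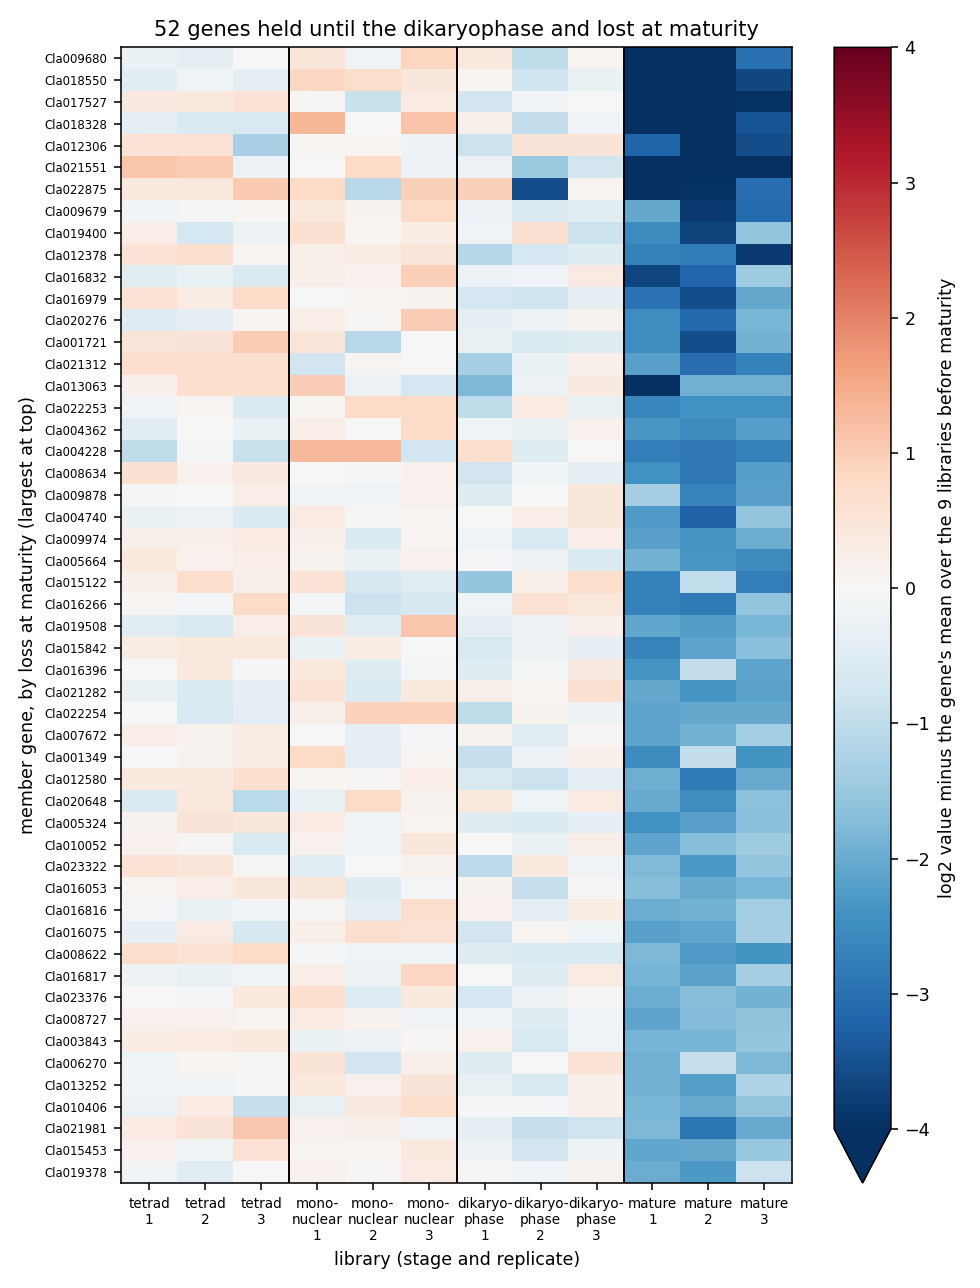
Each row is a member and each column a library, with the members sorted by their loss at maturity. Colour gives the log2 value less the gene's own mean over the 9 libraries before maturity, and darker blue in the last 3 columns is the loss, which runs from 1.51 at the bottom to 5.03 at the top when measured from the lowest earlier stage.

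Cla009680 had the largest loss by this measure. It was read at 203, 187 and 245 normalised reads in tetrad, 339.6, 219 and 438 in mononuclear, 316, 119 and 260.1 in dikaryophase, and 7.81, 0 and 29.9 in mature libraries 1 to 3. The mature libraries lay far below the others but differed widely among themselves, and their 8, 0 and 29 raw reads are few. On the linear scale and over all 3 mature libraries 4.86% of the earlier mean remained, so on that scale its loss was not the largest. In Cla018550 4.68% remained, and in Cla021551 4.09%, the lowest of the members. Without mature replicate 2 the log2 fold change of Cla009680 against the dikaryophase was -3.71 in place of -5.05. Cla018550 came next with a loss of 4.21. It had 8637, 10207 and 8909 normalised reads in tetrad, 20387, 18935 and 15854 in mononuclear and 12308, 6716 and 9550.4 in dikaryophase libraries, against 589, 227 and 922 in mature ones. Its mononuclear libraries were the highest, and the mature libraries lay below all others.

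The 2 members with the most reads had losses under the median. Cla008727 had 70944, 71453 and 67812 normalised reads in tetrad libraries and 79970.0, 69397 and 58257 in mononuclear libraries. It had 56064, 45533 and 58854 at the dikaryophase and 14781, 19095 and 20794 at maturity, so its dikaryophase libraries stood at the lower end of the earlier ones and its mature libraries far below them. Its mature mean lay 1.56 below the dikaryophase mean on the log2 scale (SE 0.16). Cla007672 had 31528, 29063 and 32722 normalised reads in tetrad and 26153, 21170.5 and 25015 in mononuclear libraries. At the dikaryophase it had 29144, 19580.0 and 27214 and at maturity 6097, 7148 and 10226. Its mature libraries were below all others, and 29.1% of the earlier mean remained.

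Cla008622 and Cla008727 varied least between the libraries of a stage. Cla008622 had 3264, 3020.3 and 3371 normalised reads in tetrad, 1885, 1832 and 1833 in mononuclear, 1425, 1311 and 1323 in dikaryophase, and 578, 416 and 379 in mature libraries. Here the 4 stages did not overlap at all, and the level stepped down at each of them within the limits of the rule. The 2 members with the most even means before maturity were Cla006270, whose earlier stage means spanned 0.04 on the log2 scale, and Cla009878, with 0.09. Even means did not make even libraries. Cla006270 had 5506, 2325 and 4411 normalised reads in mononuclear libraries and 2759, 3886 and 5707 in dikaryophase libraries, beside 3430.5, 4119 and 3976 in tetrad and 1024, 2032 and 1108 in mature ones. Cla009878 had 235, 244 and 299 in tetrad, 224, 223 and 282 in mononuclear, 179, 248 and 340.4 in dikaryophase and 97.6, 38.3 and 54.6 in mature libraries.

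**Figure D3:**
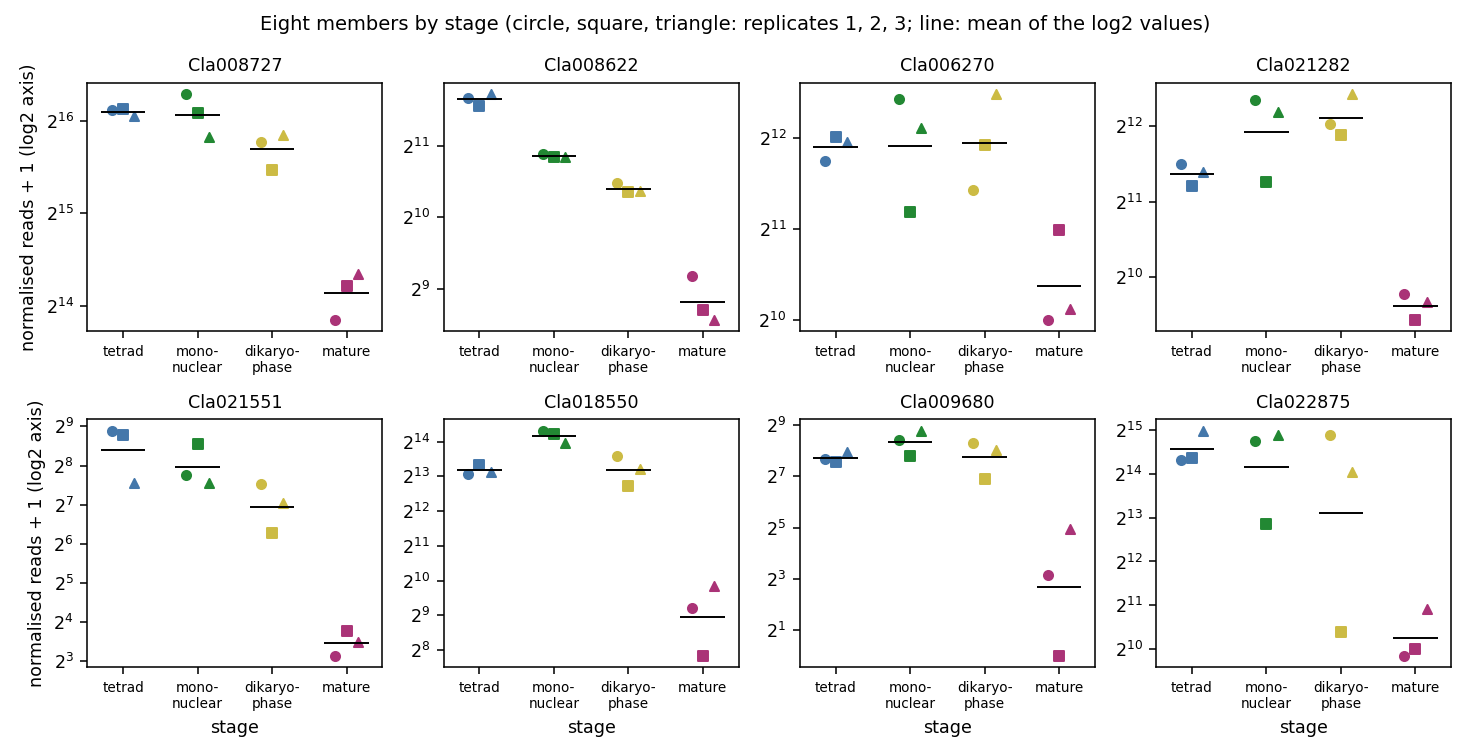
Normalised reads plus 1 on a log2 axis for 8 members, with circles, squares and triangles for replicates 1, 2 and 3 and a line at the mean of the log2 values. Cla008622 steps down without overlap, the dikaryophase replicate 2 of Cla022875 (1348 normalised reads) lies near its mature libraries (915 to 1925), and Cla009680 has no read in mature replicate 2.

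Before maturity the members stayed within the limit on range but were not constant. Their 3 earlier means spanned a median of 0.65 on the log2 scale, wider than the 0.38 of all tested genes, and the span was under 0.5 in 13 members and over 1 in 13. Among the 13428 genes that met the limits on level, range and rise but not on loss, the median range was 0.30. The tetrad mean was the highest of the 3 in 24 members, the mononuclear mean in 23 and the dikaryophase mean in 5. From tetrad to mononuclear the members had a median difference of 0.01, with 27 higher and 25 lower. From mononuclear to dikaryophase the median difference was -0.45, and 45 of the 52 stood lower at the dikaryophase (86.5%, against 51.4% of the 13428 genes). With reads scaled by library size only, that median was -0.30 and 38 of the 52 stood lower. The median of all tested genes was 0.15 under that scaling, against 0.00 with the deposited values. The rule bears on all 3 earlier means, so these shares are a description. The highest dikaryophase excess among the members was 0.18, in Cla021282, well under the limit of 0.6.

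Cla021551 and Cla022875 had the largest falls from tetrad to dikaryophase. Cla021551 had 474, 437 and 186 normalised reads in tetrad, 216, 375 and 186 in mononuclear, 183, 76.5 and 130.0 in dikaryophase and 7.81, 12.8 and 10.3 in mature libraries, a difference of -1.46 between the dikaryophase and tetrad means. Cla022875 had 20575, 21259.9 and 32566 in tetrad, 27595, 7379.5 and 30385 in mononuclear, 30519.6, 1348 and 17043 in dikaryophase and 915, 1014 and 1925 in mature libraries. Its dikaryophase replicate 2 lay below mature replicate 3, and without this library the difference of -1.45 from the tetrad mean was -0.09. Cla021282 and Cla004228 had the largest rises, of 0.74 and 0.72. Cla021282 went from 2895, 2373 and 2703 normalised reads in tetrad and 5204, 2453 and 4672 in mononuclear libraries to 4171, 3786 and 5501 at the dikaryophase, and then to 874, 693 and 812 at maturity. Cla004228 had 571, 1114 and 623 in tetrad, 2856, 2854 and 685 in mononuclear, 1856, 839 and 1147 in dikaryophase and 172, 161 and 177 in mature libraries. The 3 earlier stages overlapped, while the mature libraries were close together.

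The limma fit over all 17484 genes was made with 1 mean per stage, and a call needed a Benjamini-Hochberg adjusted p under 0.05 together with a difference of 1 or more on the log2 scale. Since the rule used these contrasts, the counts describe the members and are no evidence for them. Between mature and dikaryophase anthers 49 of the 52 members were called lower, beside 3.01% of all tested genes. Against the mononuclear stage and against the tetrad stage all 52 were called lower, beside 7.80% and 10.2% of all genes. All 3 comparisons share the mature libraries. Median log2 fold changes over the members were -1.99 against dikaryophase, -2.30 against mononuclear and -2.25 against tetrad anthers, with a median SE of 0.31, while medians over all tested genes lay between -0.01 and 0.01. The 49 members were 19.2% of the 255 genes (1.46% of those tested) that were called lower in mature anthers than at each earlier stage.

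Cla013063, Cla015122 and Cla022875 were not called between mature and dikaryophase anthers, though their losses were not small. They were singled out after their values were seen. The mature means lay below the dikaryophase means by 2.16 (SE 0.68), 1.96 (SE 0.59) and 2.87 (SE 0.94) on the log2 scale, and the adjusted p in limma was 0.0624, 0.0545 and 0.0717. Over the 22 alternatives fitted, the log2 difference ran from -2.78 to -1.39 for Cla013063, from -2.63 to -1.50 for Cla015122 and from -4.23 to -1.98 for Cla022875. In each of them a single dikaryophase library was low. Cla013063 had 436, 1292 and 1942 normalised reads at the dikaryophase and 77.1, 393 and 395 at maturity, and Cla015122 had 401, 1385 and 1906 at the dikaryophase and 179.6, 586 and 171 at maturity. Without dikaryophase replicate 1 the limma adjusted p was 0.0230 for Cla013063 and 0.00900 for Cla015122, and without dikaryophase replicate 2 it was 0.00170 for Cla022875. Leaving out mature replicate 3 gave 0.0486 for Cla013063, and leaving out mature replicate 2 gave 0.0238 for Cla015122. Over the same alternatives the adjusted p ran from 0.0230 to 0.220 for Cla013063, from 0.00900 to 0.200 for Cla015122 and from 0.00170 to 0.230 for Cla022875. Cla009680 was called (-5.05, SE 0.93), at an adjusted p of 0.00561 in limma and of 0.000818 to 0.0524 over those alternatives. Cla006270 was called as well (-1.58, SE 0.35, limma adjusted p = 0.0144), but not without dikaryophase replicate 3 (0.0705) or without mature replicate 1 (0.0583). Its adjusted p over the alternatives went down to 0.00584, and it was not called in 2 of the 22. Among the called members, Cla001349 lost its call most often, in 7 of the 22 alternatives, with a limma adjusted p of up to 0.113.

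Among the 3 earlier stages, whose range the rule limits, 8 members were called in some comparison, or 15.4%, beside 17.1% of all tested genes. Between dikaryophase and tetrad anthers 7 members (13.5%) were called, all lower at the dikaryophase, beside 6.75% of all genes called lower. These were Cla008622, Cla012378, Cla012580, Cla016979, Cla021312, Cla021551 and Cla021981, with log2 fold changes from -1.46 to -1.10. Cla012378 was also called lower at the dikaryophase than at the mononuclear stage (-1.11, SE 0.27, limma adjusted p = 0.0232), as was Cla022254 (-1.04, SE 0.30, limma adjusted p = 0.0450), beside 2.89% of all genes. With the replicate number as a block the limma adjusted p of Cla022254 was 0.0516, and 1 member was called in that comparison in place of 2. Cla022254 was the only member called between mononuclear and tetrad anthers, higher at the mononuclear stage by 1.00, beside 4.97% of all genes called higher. These genes were named after their values were seen. Without tetrad replicate 2, and likewise without tetrad replicate 3, the 8 members became 5.

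Mature and earlier libraries separated almost fully in the members. In 50 of the 52, each of the 3 mature libraries lay below each of the 9 earlier libraries, beside 7.56% of all tested genes. The gap between the highest mature and the lowest earlier library had a median of 1.02 on the log2 scale and exceeded 1 in 27 members. The 2 exceptions were Cla022875 and Cla015122, in each of which a low dikaryophase library met a high mature one. Cla015122 had 401 normalised reads in dikaryophase replicate 1 and 586 in mature replicate 2, and Cla022875 had 1348 in dikaryophase replicate 2 and 1925 in mature replicate 3. With any of these 4 libraries left out, 51 members separated fully. The largest gap was 3.07 and the most negative was -0.54. Because the rule fixed the direction, this separation is again a description.

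The mature libraries did not lose the members to the same depth. Measured from the lowest earlier stage mean, the median loss was 1.95 in mature replicate 1, 2.06 in mature replicate 2 and 1.57 in mature replicate 3. A loss of at least 1.5 was reached by 46, 45 and 28 members in these libraries, and by 20 members in all 3. The smallest of the 3 losses was in mature replicate 3 for 35 members, in mature replicate 1 for 11 and in mature replicate 2 for 6. Cla009680 and Cla016832 had the largest excess of a single mature library over the other 2, and in both it was mature replicate 3. Cla016832 had 56.6, 81.6 and 276 normalised reads in mature libraries, against 535, 615 and 496 in tetrad, 867, 839.6 and 1425 in mononuclear and 622, 676 and 919 in dikaryophase libraries. In this library its loss was 0.98, and it was under 1 there in 2 further members, Cla013252 (0.99) and Cla019378 (0.65).

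**Figure D4:**
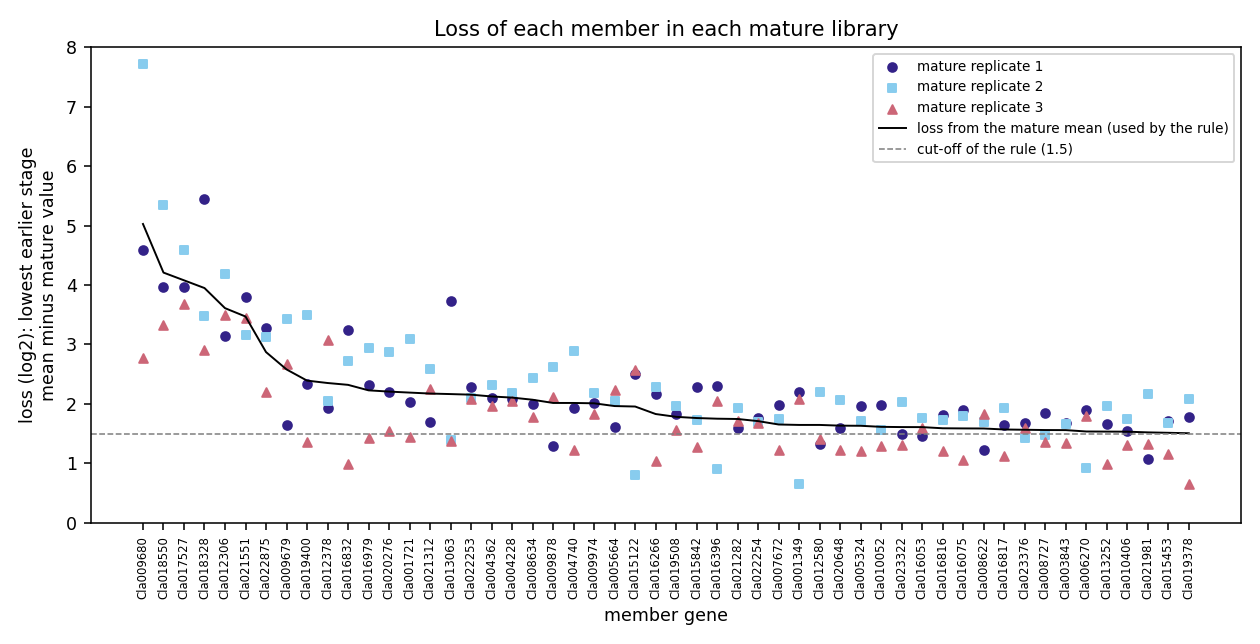
Loss of each member (log2, lowest earlier stage mean less the mature value) in mature replicates 1, 2 and 3, sorted by the loss from the mature mean, which is the black line and was used by the rule. The dashed line is the limit of 1.5, which 46, 45 and 28 members reach in the 3 libraries.

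The rule used stage means only, so the order of the libraries within a stage was left free. In the members that order was uneven. Mature replicate 3 was the highest of its stage in 35 of the 52 members (67.3%, against 40.2% of the other tested genes), and its median deviation from the other 2 mature libraries was 0.40 on the log2 scale, against 0.00 in the other tested genes. Dikaryophase replicate 3 was the highest of its stage in 27 members (51.9%, against 31.0%). It was above the mean of the other 2 in 45 members (86.5%, against 51.8%), with a median deviation of 0.35 against 0.01. Mononuclear replicate 2 was the lowest of its stage in 34 members (65.4%, against 28.3%), with a median deviation of -0.33 against 0.01. Tetrad libraries deviated by -0.07, -0.03 and 0.07. Mature replicate 3, dikaryophase replicate 3 and mononuclear replicate 2 also stood apart on the first principal component computed without the members. Tetrad replicate 3 did so too, with its deviation of 0.07 in the members. Not every deviating library did: mature replicate 2 deviated by -0.28 in the members (lowest in 53.8%, against 28.6%) and mononuclear replicate 3 by 0.23 (highest in 48.1%, against 38.8%), and both lay close to replicate 1 of their stage on that component. By the median squared deviation in counting units, mononuclear replicate 3, dikaryophase replicate 1 and mature replicate 3 were the farthest of their stages. Whether the shift of any of these libraries sets the members' values was not tested.

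The same shifts were seen in other genes that stood lower at maturity. In the 477 other genes called lower in mature than in dikaryophase anthers, the median deviation was 0.23 for mature replicate 3, 0.27 for dikaryophase replicate 3 and -0.27 for mononuclear replicate 2, in the same direction as in the members. In 80.7% of those 477 genes dikaryophase replicate 3 was above the mean of the other 2 dikaryophase libraries. The members also varied more between the libraries of a stage than genes at large. Taking the stages in order, their median SD over the 3 libraries was 0.21, 0.40, 0.38 and 0.46 on the log2 scale. Over the 13428 level genes without the loss it was 0.10, 0.18, 0.16 and 0.17, and over the 477 other genes it was 0.25, 0.39, 0.38 and 0.40. No test was made over genes, and the spread is not called particular to the members.

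**Figure D5:**
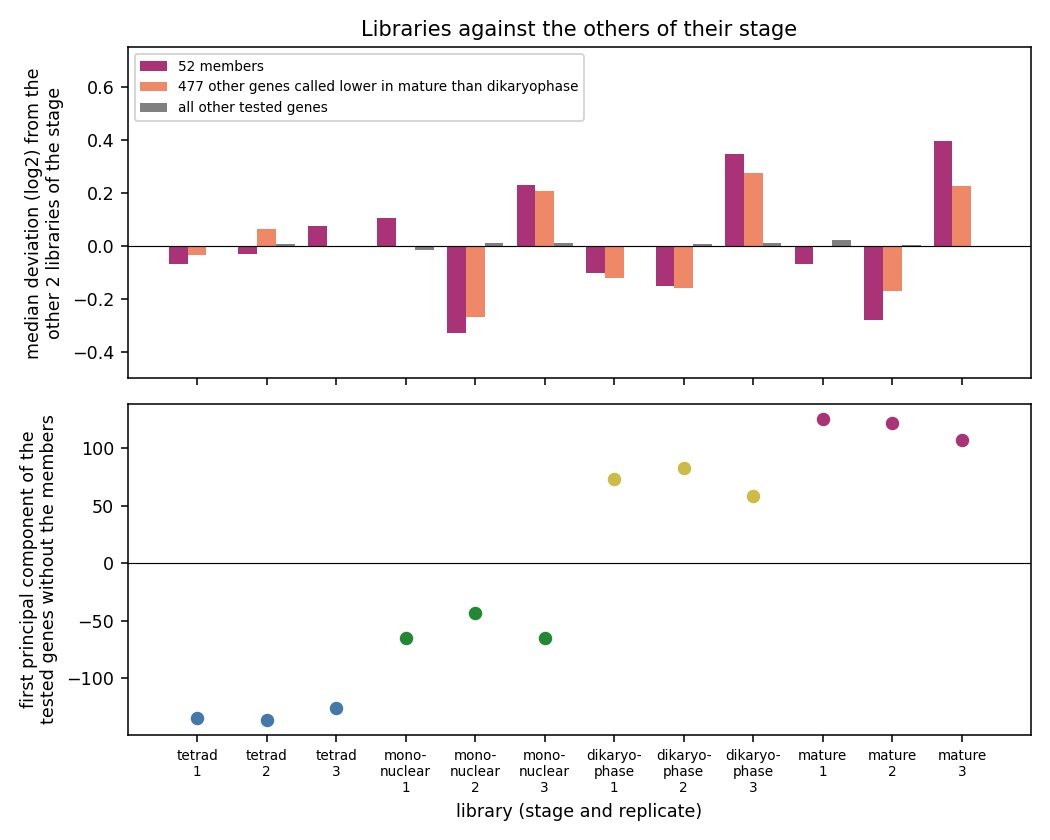
Top, the median deviation (log2) of each library from the other 2 of its stage in the 52 members, in the 477 other genes called lower in mature than in dikaryophase anthers, and in all other tested genes. Bottom, the position of each library on the first principal component of the tested genes without the members. Mononuclear replicate 2 (-43.0), dikaryophase replicate 3 (58.6) and mature replicate 3 (107) lie apart from the others of their stage. Tetrad replicate 3 (-125) does so as well.

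A few members differed from this order in the mature libraries. Cla001349, Cla006270, Cla015122 and Cla016396 were singled out after their values were seen, as the 4 members whose loss in mature replicate 2 was under 1 (0.65, 0.91, 0.80 and 0.90). Cla001349 had 314, 919 and 341 normalised reads in mature libraries, and Cla016396 had 1969, 5221 and 2365. In all 4 of them mononuclear replicate 1 was the highest and replicate 2 the lowest of the mononuclear libraries, and dikaryophase replicate 3 was the highest and replicate 1 the lowest of the dikaryophase libraries. Over all 52 members these positions were held in 21, 34, 27 and 23, so the 4 shared the low mononuclear replicate 2 and the high dikaryophase replicate 3 with many others. Cla001349 had 3085, 1368 and 1908 in mononuclear and 952, 1558 and 2041 in dikaryophase libraries, with 1820.5, 1963 and 2183 in tetrad ones. Cla016396 had 13729, 7214 and 9676 in mononuclear and 7228, 9755 and 13140.0 in dikaryophase libraries, with 10129, 13429 and 9739.7 in tetrad ones.

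Genes on either side of a limit had nearly the same value of the limited quantity, but not always the same course. For the level, Cla009878 (8.01) was the nearest inside and Cla014327 (7.90) the nearest outside among genes that met the other limits. Cla014327 had 94.8, 110.1 and 121 normalised reads at the dikaryophase and 31.2, 14.7 and 59.8 at maturity. For the loss, Cla019378 was inside with 1.51 and Cla002545 outside with 1.48. Cla002545 had 374, 106 and 279 normalised reads in tetrad and 172, 105 and 270 in dikaryophase libraries, a wide scatter, against 975, 799 and 1068 and then 1120, 994 and 1201 in Cla019378. For the range, Cla021551 was inside with 1.46 and Cla023052 outside with 1.52. Cla021551 declined from stage to stage, with means of 8.40, 7.96, 6.94 and 3.47 on the log2 scale, while Cla023052 peaked in between, with a mononuclear mean of 11.28 between 9.76 in tetrad and 9.94 in dikaryophase anthers and 6.55 at maturity. Of genes that met the other limits, 75 missed the level and 109 the range.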

How the data were processed

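The deposited table holds log2 values per gene and library. No aligner, counter, genome build, annotation or strand setting is given in the sources used here, so it is uncertain how reads of overlapping or near-identical genes were split. For 100% of the values, the deposited log2 value, taken back to the linear scale and less 1, was a whole multiple of 1 step per library (tolerance 0.01 reads), so each value is the log2 of a read count over a library factor (0.887 to 1.07), plus 1. Reads and CPM were worked back from this; 1 CPM stood for 55.3 to 65.6 reads.

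Groups came from the stage labels and replicate numbers from the titles. The rule for the members was applied to the deposited values. The 17484 genes that reached 1 CPM in 3 or more libraries were fitted in R 4.3.3 with limma 3.58.1, with variances moderated along the mean. Same-numbered libraries deviated together between mononuclear and dikaryophase anthers (correlations of 0.11, 0.15 and 0.17), from the data and not from a statement in the labels, and the replicate block is given beside that comparison where it changes a call. SE values come from the spread pooled over the 4 stages. Named genes were the 2 members with the highest level, largest loss, smallest range, largest fall and largest rise from tetrad to dikaryophase, smallest and largest spread, and largest excess of a mature library, plus the genes nearest each limit. All other genes were named after their values or ID numbers were seen, whether or not the text marks it. Lists of gene functions and cell type markers had been planned, but could not be matched to the IDs. Alternatives were other scalings, a pseudocount of 0.1, other filters and limits, pairs of stages fitted alone, the replicate number as a block, limma-voom on the reads, and each library left out. The members, lists and comparisons were chosen with earlier results of these data known.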

Additional observations from a re-analysis of the deposited data

How the results depend on the processing

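The number of members depended on the limits: with all limits 0.25 stricter on the log2 scale 21 genes remained, and with all 0.25 looser there were 98. Other scalings and a pseudocount of 0.1 gave 52 to 54, of which 49 to 52 were members. With each library left out in turn the rule found 41 to 61 genes, of which 38 to 50 were members, and 21 members were found every time. Without both mononuclear replicate 2 and mature replicate 3, chosen after seeing the data, it found 62, of which 47 were members. Members called lower at maturity than at the dikaryophase numbered 43 to 51 over all alternatives. The 43 came with a filter of 5 CPM, which tested 46 of the members. With the pair of stages fitted alone, 45 of all 52 members were called. Calls among the earlier stages fell from 8 to 5 without a filter and ranged from 5 to 9 with each library left out, and were 10 without both libraries named above. They were also 10 with limma-voom and with pairs of stages fitted alone, and 11 with the limit on adjusted p alone. Scaled by library size alone, the median of all tested genes moved by 0.15 from mononuclear to dikaryophase and by -0.14 from tetrad to mononuclear anthers. Deviations of same-numbered libraries correlated above 0.1 in 6 of 18 pairs (-0.11 to 0.36), among them all 3 between mononuclear and dikaryophase, and in no other comparison all 3. The highest, 0.36, was between dikaryophase and mature anthers for replicate 3, beside -0.06 for replicate 1 and 0.10 for replicate 2. Between mononuclear and mature anthers, replicates 1, 2 and 3 gave -0.11, 0.03 and 0.16. Of 12 libraries, 4 were closest to their own number. With the replicate number as a block, 50 members were called lower at maturity than at the dikaryophase in place of 49, and Cla022875 was called (adjusted p = 0.0314 in limma); calls among the earlier stages were 9 in place of 8. Between mature and dikaryophase anthers none of the 16 genes named by the rule changed direction, and 339 of their 350 values kept their side of the thresholds. Median deviations of mature replicate 3, dikaryophase replicate 3 and mononuclear replicate 2 in the members were 0.40 to 0.53, 0.35 to 0.36 and -0.39 to -0.30 over the scalings and the other pseudocount, and 50 or 51 members had mature libraries below all earlier ones. Depth limits Cla009680, with 8, 0 and 29 reads in mature libraries, and Cla021551, with 8, 13 and 10. In 9 members the mature mean was under 1 CPM.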

Other observations

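The same limits turned round, for genes level before maturity and at least 1.5 higher on the log2 scale at maturity, with a mature mean of at least 8, held for 44 genes, against 52 members. Of the 162 genes with the level and the loss, the members were 32.1%; the others had a wider range before maturity.

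Among the members, 3 pairs had consecutive ID numbers: Cla009679 with Cla009680, Cla016816 with Cla016817, and Cla022253 with Cla022254. The table does not give positions. Reads shared between near-identical genes cannot be told apart, and whether the members of a pair are independent was not tested. Cla022253 had 679, 791 and 507 normalised reads in tetrad, 792, 1292 and 1292 in mononuclear, 371, 957 and 617 in dikaryophase and 123, 141 and 141 in mature libraries. Cla022254 had 531, 339 and 402, then 596, 987 and 994, then 258, 575 and 447, and at maturity 119, 125 and 126. In both, mononuclear replicate 1 was the lowest of its stage and dikaryophase replicate 2 the highest, the first of which held for 11 and the second for 9 of the 52 members. Cla009679 had 196, 204 and 224 in tetrad, 282, 231 and 354 in mononuclear, 178, 139 and 157 in dikaryophase and 49.8, 13.8 and 23.7 in mature libraries, beside the values of Cla009680 given above.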
